A study of Mus musculus with 26 samples.

Results

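Axon guidance ligands and receptors were taken as every gene with a symbol that starts with Sema, Plxn, Nrp, Efna, Efnb, Epha, Ephb, Slit or Robo followed by a number, or by a letter and a number; the Slitrk genes fall outside this rule. It gave 60 of the 18193 genes named on the arrays: 20 Sema, 10 Plxn, 2 Nrp, 5 Efna, 3 Efnb, 9 Epha, 4 Ephb, 3 Slit and 4 Robo genes. One of the Plxn entries, Plxna4os1, is an antisense transcript and not a receptor. Another Eph gene, Ephb2, was not analysed here, because no probe set carried its name alone. Transcript levels come from 1-colour arrays, with 1 array for each mouse sample. The groups were 15 primary osteosarcomas, 4 osteosarcoma cell lines, 4 secondary tumours and, as the control, 3 cultures of wild-type primary osteoblasts that had been differentiated in vitro. Osteosarcoma is a malignant tumour of bone-forming cells. The labels used here state no genotype, strain or age for the tumours and no promoter or Cre driver, and they do not spell out the prefix OPflR in the secondary tumours' titles. Secondary tumours 29, 64 and 94 are labelled as transplants. Number 66 is labelled as tumour tissue derived from a cell line, and its title calls it a cell line; it was kept with the secondary tumours.

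Guidance cues are proteins on cells or in the matrix that growing axons and migrating cells read through surface receptors. Slit proteins act through Robo receptors, semaphorins through plexins with neuropilins as co-receptors for the secreted class, and ephrins through Eph receptor tyrosine kinases, in both directions between touching cells. The same systems guide blood vessels, and in bone several of them, among them Sema4d, Sema3a and the ephrin-B2 and EphB4 pair, are known for signals between osteoclasts and osteoblasts.

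Levels are log2 intensities. Intensities were first raised to a floor of 12.5, which is 3.64 on the log2 scale, so a value of 3.64 is an upper bound. Of the 60 genes, 48 passed a filter on dim probe sets and were tested among 12887 genes with limma. A gene was called when its Benjamini-Hochberg adjusted p over all genes was below 0.05 and its difference at least 2-fold, which is 1 on the log2 scale. Among the called genes, Robo4, Epha6 and Efna3 cleared the filter on tumour arrays only, and Sema3e on cultured arrays only. Efna1 and Sema6a needed tumour arrays to pass. Tests of these genes between tumours and cultured groups are therefore not independent of the filter. Differences are given with limma's standard error (SE), and group levels as mean ± SD. With 3 or 4 arrays in a group, the number of arrays limits the precision. Limma used 1 estimate of the spread for each gene, shared by the 4 groups and drawn mostly from the primary tumours. A p-value between 2 small groups therefore also reflects the spread among primary tumours. The osteoblast cultures are numbered but not assigned to separate animals, so their own spread may be technical.

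Ratios between the bacterial control probe sets split the arrays into 3 sets. Set A was the 3 osteoblast cultures. Set B was 7 primary tumours with the 4 secondary tumours, and set C was 8 primary tumours with the 4 cell lines. Of the spiked bacterial transcripts, bioB over bioC stood at 0.505 to 0.521 for set A, at 0.418 to 0.46 for set B and at 1.16 to 1.28 for set C. The labels name no batch, and what the sets stand for is not known. Osteoblasts share no set with another group, so for every comparison against them the set and the group cannot be told apart. Cell lines can be compared with primary tumours inside set C, and secondary with primary tumours inside set B. The Gapdh 5′ to 3′ ratio, a measure of RNA integrity, spanned 0.916 to 0.967 (osteoblasts), 1.04 to 1.08 (lines), 0.656 to 1.03 (primary tumours) and 0.839 to 1.08 (secondary tumours).

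The main pattern was a group of guidance genes that was high in tumours and low in cell lines. Against osteoblasts, primary tumours had 10 of the 48 genes higher and 5 lower, where 6.58% and 11.9% of all tested genes were called higher and lower. Cell lines had 1 higher and 3 lower than osteoblasts, against 1.58% and 6.64% of all genes. Secondary tumours had 11 higher and 2 lower than osteoblasts, against 7.71% and 10.8% of all genes. Between cell lines and primary tumours, 2 of the 48 were higher and 16 lower in the lines, which is 4.17% and 33.3% of them, against 4.72% and 7.03% of all genes. Between cell lines and secondary tumours, 2 were higher and 15 lower in the lines, which is 4.17% and 31.2%, against 4.77% and 8.4% of all genes. The median difference of cell lines from primary tumours was -0.45 over the 48 genes and -0.03 over all genes. From secondary tumours it was -0.49 over the 48 genes and -0.07 over all genes. The comparisons that hold one group in common share its arrays, so these counts are not independent of each other. They also include genes that depended on the filter. Robo4, Epha6, Efna3, Efna1 and Sema6a needed tumour arrays to pass, and Sema3e passed on cultured arrays only. Counts between tumours and cultured groups are therefore not independent of the filter.

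No gene of the 48 was called between secondary and primary tumours by limma's adjusted p. In that comparison 0.00776% of all genes, 1 gene, were called higher and 0% lower. An unadjusted p below 0.05 was reached by 4 of the 48. The share of all tested genes at that threshold is not given here, so this count is not read as a result. In all, 24 of the 48 genes were called in 1 or more comparisons, against 30.2% of all tested genes. In cell lines, 14 of the 48 were lower than in both tumour groups, against 5.52% of all tested genes. The 14 include Robo4, Efna1 and Sema6a, which needed tumour arrays to pass the filter.

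**Figure D1:**
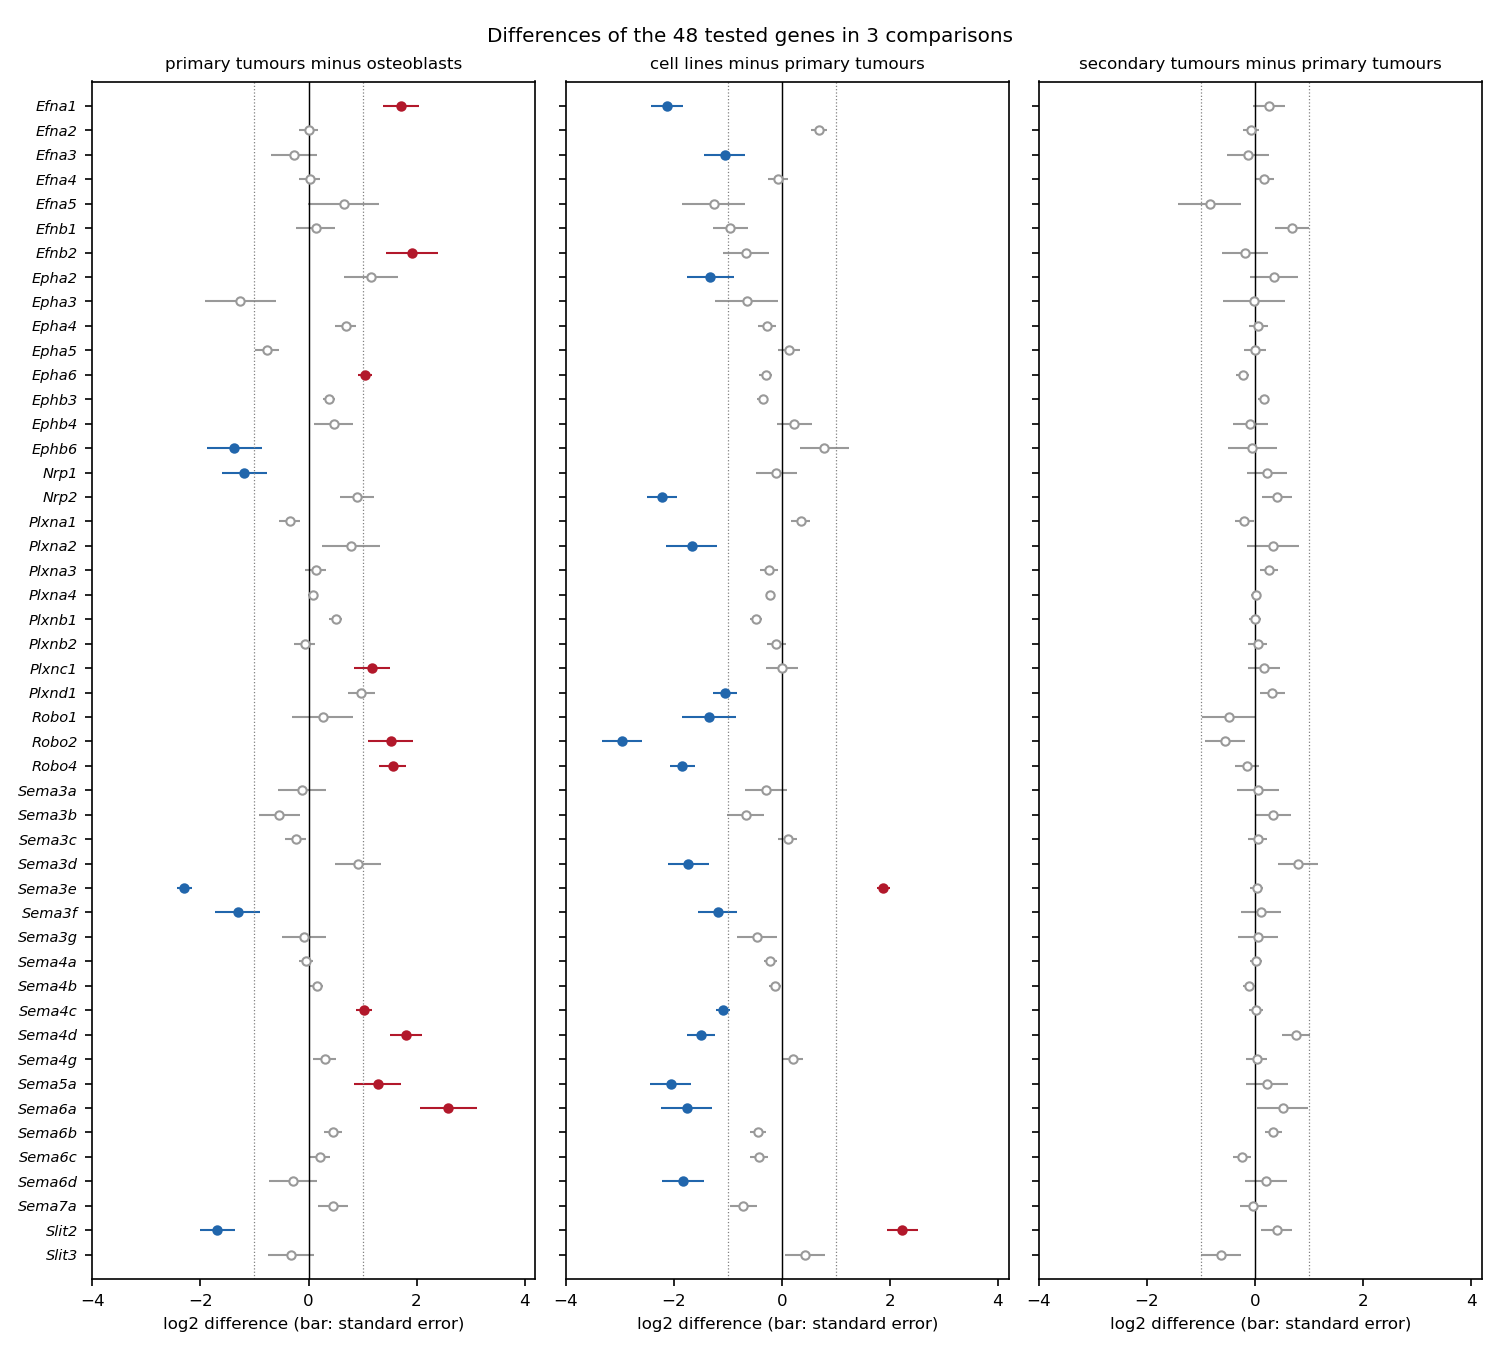
Each row is 1 of the 48 tested genes, and each panel a comparison. Points are log2 differences with limma's standard error as bars, red where called higher, blue where called lower and open grey where not called, and dotted lines mark a difference of 1. Cell lines minus primary tumours has 16 blue and 2 red points, and secondary minus primary tumours has none.

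The difference between cell lines and primary tumours kept its call in every setting in which it was tested, of 16 run, for Nrp2, Robo2, Robo4 and Slit2. For these genes the 250 bases before the transcription start are shown, because no setting that tested them ended this call. Robo4 was not tested under the filter at the 75th percentile, and Slit2 moved from 2.23 to 1.38 with the mean of its probe sets. Under the main filter Robo4 passed through tumour arrays only. The sequences come from RefSeq windows on build GRCm38.p6, read 5′ to 3′ on the gene's strand, and 52 of the 60 genes have such a window. Capitals mark matches, on either strand, to 4 motifs: the GC box GGGCGG, the ETS core CCGGAA, the TATA box TATAAA and the E-box CACGTG. Nrp2 lies at chr1:62703067-62703316 on the plus strand and Robo2 at chr16:75447294-75447543 on the minus strand, the most upstream of its 3 windows. Robo4 lies at chr9:37401722-37401971 and Slit2 at chr5:47982905-47983154, both on the plus strand.
Nrp2: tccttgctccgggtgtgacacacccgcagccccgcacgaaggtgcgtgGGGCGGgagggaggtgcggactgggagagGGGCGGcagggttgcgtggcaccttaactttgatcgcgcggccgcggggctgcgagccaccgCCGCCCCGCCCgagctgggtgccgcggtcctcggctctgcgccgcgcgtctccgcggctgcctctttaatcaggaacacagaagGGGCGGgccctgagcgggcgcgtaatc
Robo2: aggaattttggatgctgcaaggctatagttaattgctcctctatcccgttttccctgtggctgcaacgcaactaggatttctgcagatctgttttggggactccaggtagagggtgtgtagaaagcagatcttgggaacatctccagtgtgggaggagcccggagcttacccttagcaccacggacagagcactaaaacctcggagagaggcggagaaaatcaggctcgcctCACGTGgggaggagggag
Robo4: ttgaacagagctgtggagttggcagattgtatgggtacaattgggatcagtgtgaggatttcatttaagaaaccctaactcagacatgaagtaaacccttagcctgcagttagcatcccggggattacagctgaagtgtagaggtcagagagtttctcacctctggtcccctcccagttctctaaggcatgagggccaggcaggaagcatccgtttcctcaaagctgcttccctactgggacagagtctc
Slit2: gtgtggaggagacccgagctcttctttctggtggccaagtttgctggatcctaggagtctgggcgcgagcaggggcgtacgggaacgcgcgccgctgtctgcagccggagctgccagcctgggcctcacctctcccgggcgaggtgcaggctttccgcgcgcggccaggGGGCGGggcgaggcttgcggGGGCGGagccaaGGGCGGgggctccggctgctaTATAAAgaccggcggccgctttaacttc
Nrp2 had 72.4% GC, 32 CpG and 5 GC box matches, some of which overlap. Slit2 had 69.6% GC, 25 CpG, 3 GC boxes and 1 TATA box. Robo2 had 53.2% GC, 8 CpG and 1 E-box, and Robo4 49.6% GC, 2 CpG and no match to any of the 4 motifs. Over all 32851 windows the medians were 52.4% GC and 6 CpG, and 32.7% held a GC box, 12% an ETS core, 12.4% a TATA box and 6.02% an E-box. A match describes the letters and shows no binding.

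Slit2, a secreted ligand of Robo receptors, was low in tumours and high in both cultured groups. Its levels were 9.15, 9.16 and 8.81 in the osteoblast cultures and 10.31, 9.39, 9.15 and 9.47 in cell lines 176, 179, 182 and 213. Primary tumours ran from 6.73 through a median of 7.11 to 8.29, and secondary tumours 29, 64, 66 and 94 were at 6.95, 8.38, 8.36 and 7.30. No tumour of either kind reached the lowest osteoblast culture or cell line. Cell lines exceeded primary tumours by 2.23 (SE 0.288, adjusted p = 3.34e-06), a 4.69-fold difference, and secondary tumours by 1.83 (SE 0.362, adjusted p = 0.000657). Primary tumours differed from osteoblasts by -1.69 (SE 0.324, adjusted p = 0.000185), and secondary tumours by -1.29 (adjusted p = 0.0123). The call against osteoblasts rested on this probe set: the difference for the other 2 was -0.28 and -0.24 in primary tumours, and with the mean of the probe sets it was -0.73. That mean kept the lines above primary tumours, by 1.38. Without secondary tumour 29 the secondary difference was -1.02 (adjusted p = 0.0516).

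Slit3, a related ligand and the Slit gene with the highest mean, passed the test in no comparison. It measured 9.01, 8.72 and 8.56 in osteoblasts and 9.12, 8.26, 8.58 and 9.47 in cell lines. Primary tumours spanned 6.77 to 9.84 with a median of 8.69, and secondary tumours 7.66 to 8.12. Slit1 did not pass the filter and was at the floor on 13 of 15 primary tumours.

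Robo2, a Slit receptor, had the largest difference of cell lines from primary tumours among the 48 genes. The lines stood at 5.44, 4.71, 5.14 and 3.88, and the primary tumours at 6.33 to 8.75 with a median of 7.7. Osteoblasts measured 5.93, 6.59 and 6.16, and secondary tumours 5.96, 8.32, 7.56 and 6.93. Every primary and secondary tumour was above every line. The log2 difference of lines from primary tumours was -2.96 (SE 0.375, adjusted p = 2.68e-06) and from secondary tumours -2.40 (SE 0.472, adjusted p = 0.000634). Within array set C the first was -3.07. Primary tumours exceeded osteoblasts by 1.52 (SE 0.422, adjusted p = 0.00527), with an overlap between the lowest tumour and the highest culture.

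Robo4, the Robo receptor of endothelium, was at 4.72, 5.22 and 4.37 in osteoblasts and 4.63, 4.45, 4.84 and 4.05 in cell lines. Primary tumours lay between 5.97 and 7.27 with a median of 6.28, and secondary tumours at 6.01, 6.95, 6.07 and 5.67. All tumours were above all cultures. No osteoblast or line array cleared the filter for Robo4, so the gene entered through the tumours, where it was high. Primary tumours exceeded osteoblasts by 1.56 (SE 0.253, adjusted p = 2.70e-05), secondary tumours by 1.41 (SE 0.306, adjusted p = 0.00101). Cell lines differed from primary tumours by -1.84 (SE 0.225, adjusted p = 1.73e-06) and from secondary tumours by -1.68 (SE 0.283, adjusted p = 0.00015).

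Robo1, the Robo gene with the highest mean and the neighbour of Robo2 on chromosome 16, was called in 1 comparison. Levels were 8.37, 8.26 and 8.11 in osteoblasts, 7.15 to 10.07 (median 8.78) in primary tumours and 8.06, 8.54, 6.33 and 9.16 in secondary tumours. Cell line 176 stood at 5.36 and the other lines at 7.66, 7.76 and 7.87. The lines' difference from primary tumours was -1.35 (SE 0.501, adjusted p = 0.0362), and -0.75 (adjusted p = 0.268) without line 176. It was -0.72 (adjusted p = 0.232) within array set C. Robo3, which is expressed in commissural neurons, did not pass the filter, although it lies next to Robo4 on chromosome 9.

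**Figure D2:**
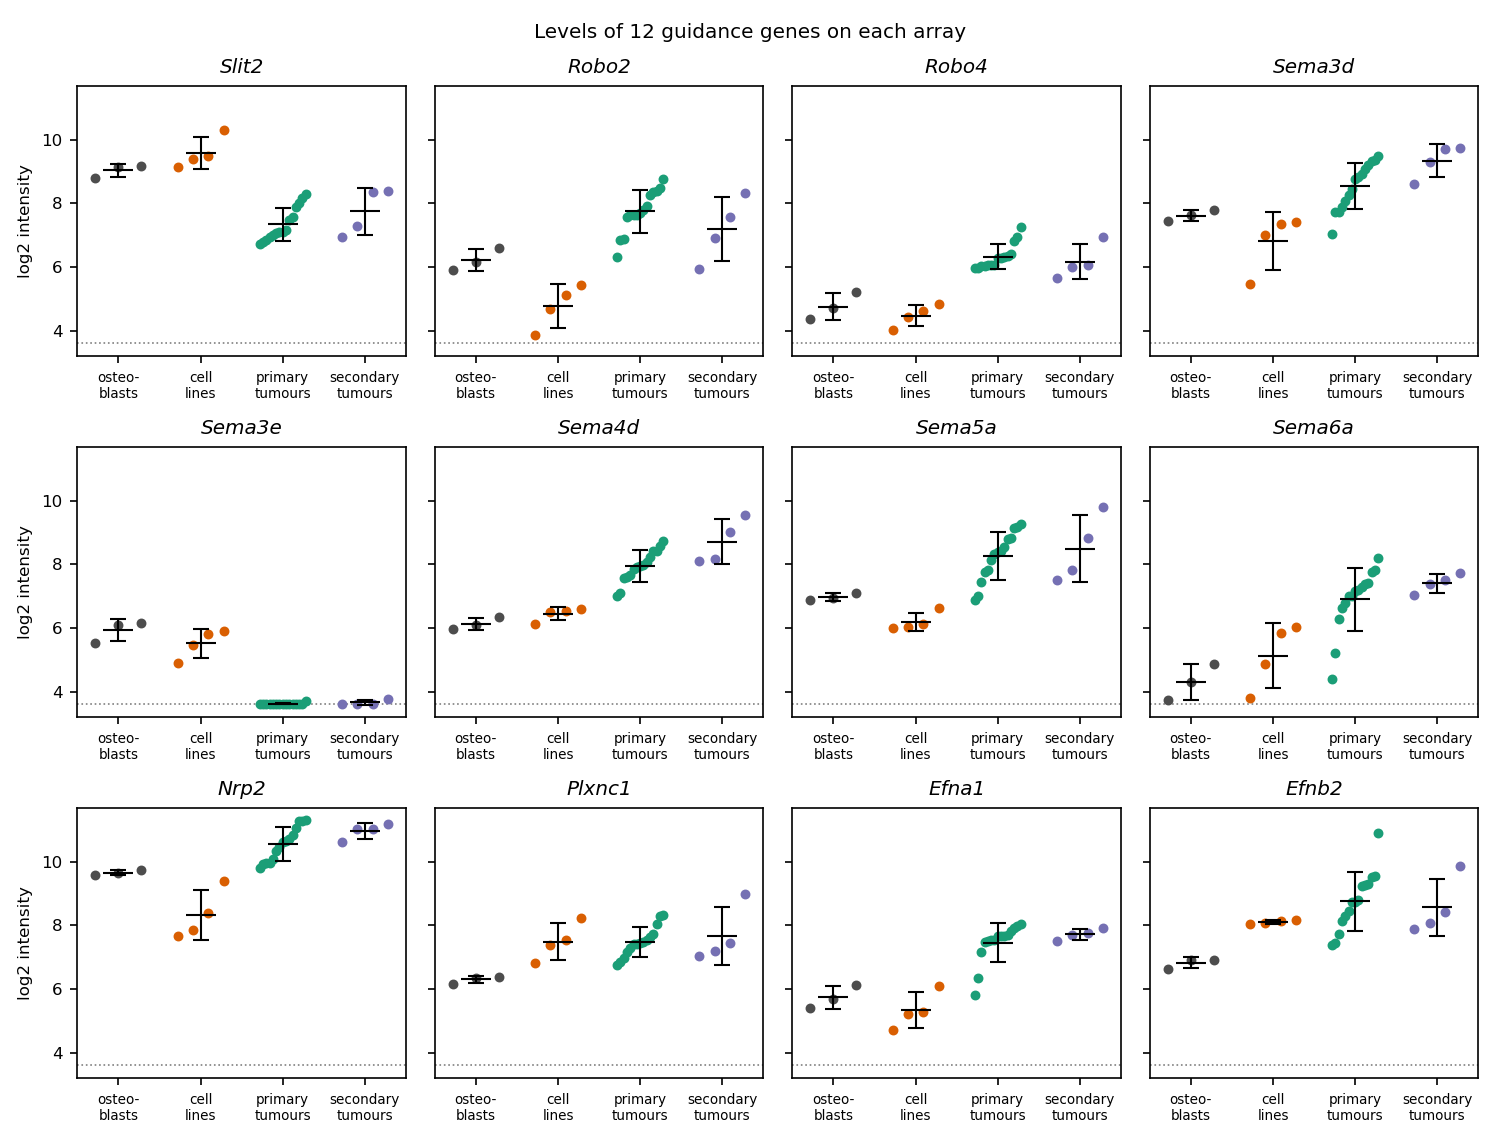
Log2 intensity of 12 genes on each of the 26 arrays, by group. Points are arrays in order of level, the bar is the mean ± SD and the dotted line is the floor at 3.64. Slit2 and Sema3e are low in both tumour groups, and Robo2, Robo4, Sema4d and Nrp2 have no tumour below the highest cell line.

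Among the semaphorins, 18 of 20 genes were tested. Primary tumours had 4 higher and 2 lower than osteoblasts, where 6.58% and 11.9% of all tested genes were called higher and lower. Cell lines had 1 higher and 7 lower than primary tumours, against 4.72% and 7.03% of all genes. The same counts, 1 and 7, held for lines and secondary tumours, against 4.77% and 8.4% of all genes. The 2 lower than osteoblasts and the 1 higher in lines lie near these shares. Among the counted genes, Sema6a needed tumour arrays to pass the filter, and Sema3e passed on cultured arrays only. Sema4d, Sema5a, Sema6a and Sema4c were high in both tumour groups and low in both cultured groups. Of these, Sema4d is a transmembrane ligand of plexin-B1 that osteoclasts present to osteoblasts.

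Sema4d measured 6.09, 5.98 and 6.35 in osteoblasts and 6.54, 6.52, 6.60 and 6.15 in cell lines. The primary tumours spanned 7.02 to 8.74 (median 7.96), and secondary tumours were at 9.0, 9.56, 8.12 and 8.16. The lowest tumour was above the highest culture. Primary tumours exceeded osteoblasts by 1.81 (SE 0.294, adjusted p = 2.84e-05) and secondary tumours by 2.57 (SE 0.356, adjusted p = 6.75e-06), which are 3.5-fold and 5.94-fold. The lines' difference was -1.5 from primary tumours (adjusted p = 0.000115) and -2.26 from secondary tumours (SE 0.329, adjusted p = 3.60e-05). With lines and primary tumours matched by number, limma gave -1.02 (adjusted p = 0.105), which was not called. The other probe set that passed the filter, a dimmer one, gave 1.62 for primary tumours against osteoblasts.

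Sema6a, a transmembrane semaphorin that binds A-type plexins, had the largest difference of tumours from osteoblasts. The cultures were at 4.33, 4.87 and 3.76, and the lines at 3.82, 6.03, 4.88 and 5.85. Primary tumours ran from 4.4 to 8.19 with a median of 7.16, and secondary tumours were at 7.03, 7.38, 7.52 and 7.74. The lowest primary tumour lay within the range of the osteoblasts, and all secondary tumours lay above it. Against osteoblasts the difference was 2.59 in primary tumours (SE 0.533, adjusted p = 0.000395) and 3.10 in secondary tumours (SE 0.644, adjusted p = 0.000662), or 6.02-fold and 8.56-fold. With the mean of the probe sets these were 1.67 and 2.12, and with a floor at the 40th percentile 1.90 and 2.36. Cell lines differed by -1.76 from primary tumours (SE 0.475, adjusted p = 0.00535) and by -2.27 from secondary tumours (SE 0.596, adjusted p = 0.006). The mean of the probe sets ended the first of these calls (-0.91), and the array set as a fixed term the other (-1.62, adjusted p = 0.147). Matching lines and primary tumours by number in limma also ended the first (-2.41, adjusted p = 0.0525).

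Sema5a, which binds plexin-A receptors and matrix proteoglycans, was at 6.94, 7.12 and 6.89 in osteoblasts. The lines measured 6.13, 6.05, 6.01 and 6.63, all below every primary tumour (6.9 to 9.28, median 8.39) and every secondary tumour (7.81, 9.80, 8.84 and 7.50). The difference of the lines was -2.06 from primary tumours (SE 0.386, adjusted p = 0.000227) and -2.28 from secondary tumours (SE 0.485, adjusted p = 0.0012). With the array set as a fixed term the latter was -1.78 (adjusted p = 0.0517). In limma with lines and primary tumours matched by number, the former was -1.17 (adjusted p = 0.0744). Tumours exceeded osteoblasts by 1.28 (adjusted p = 0.0199) in primary and 1.5 (SE 0.524, adjusted p = 0.0279) in secondary tumours. Both calls were lost when any 1 osteoblast culture was left out, with adjusted p between 0.055 and 0.0754. The primary one was also lost with the mean of the probe sets (0.99) and in array set C alone (1.04), and the secondary one also without tumour 64 (1.06) or tumour 66 (1.39).

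Sema4c, another transmembrane semaphorin, was tight within each group: 7.44 ± 0.07 in 3 osteoblast cultures, 7.38 ± 0.23 in 4 lines, 8.47 ± 0.24 in 15 primary tumours and 8.49 ± 0.18 in 4 secondary tumours. Primary tumours exceeded osteoblasts by 1.03 (adjusted p = 5.21e-06), and lines differed from primary tumours by -1.09 (adjusted p = 1.19e-06). These values sit at the 2-fold limit: without line 182 the latter was -0.98, and without secondary tumour 94 the excess of secondary tumours over osteoblasts went from 1.05 to 0.98. In both cases the adjusted p stayed low, at 2.81e-05 and 0.000456. The lines differed from secondary tumours by -1.11 (adjusted p = 4.16e-05), and by -0.99 and -0.96 with quantile normalization and with scaling to a common 75th percentile.

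The secreted class 3 semaphorins moved in several directions. Sema3d, which guides vessels and neural crest cells, was at 7.79, 7.63 and 7.44 in osteoblasts and at 5.49, 7.41, 7.35 and 7.02 in the lines. Across the primary tumours the range was 7.04 to 9.48 (median 8.75) and secondary tumours were at 9.31, 9.73, 9.70 and 8.61, above every culture. Secondary tumours exceeded osteoblasts by 1.71 (SE 0.508, adjusted p = 0.0106). The lines differed from primary tumours by -1.73 (SE 0.374, adjusted p = 0.000904) and from secondary tumours by -2.52 (SE 0.470, adjusted p = 0.000403). When limma matched lines and primary tumours by number, the difference was -1.98 (adjusted p = 0.134), which was not called. Primary tumours against osteoblasts gave 0.92, which was not called (adjusted p = 0.079).

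Sema3e, the ligand of plexin-D1, was, like Slit2, lower in both tumour groups than in both cultured groups. It was at 6.17, 6.10 and 5.55 in osteoblasts and 5.47, 5.82, 5.91 and 4.91 in the lines. Of the primary tumours, 14 of 15 were at the floor and the highest was at 3.73; of the secondary tumours, 3 of 4 were at the floor and number 66 was at 3.80. No tumour reached the lowest culture. No tumour array cleared the filter for this probe set either, so it entered through the cultured groups, where it was high. Its tests against tumours are no independent support for the difference. The differences, -2.30 in primary tumours (SE 0.137, adjusted p = 2.67e-12) and -2.26 in secondary tumours (SE 0.165, adjusted p = 2.70e-10) against osteoblasts, and 1.88 for lines over primary tumours (SE 0.122, adjusted p = 4.20e-11) and 1.85 over secondary tumours (SE 0.153, adjusted p = 1.38e-08), were set by the floor. With the floor at the 40th percentile they were -0.89, -0.89, 0.51 and 0.51, below 2-fold. The probe set of Sema3e with the highest mean did not pass the filter; with no filter it stood for the gene and gave -0.83 for primary and -0.71 for secondary tumours against osteoblasts.

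Sema3f, a neuropilin-2 ligand, was lowest in the lines. Osteoblasts were at 6.82, 6.47 and 6.27, and the lines at 3.64, 3.64, 4.17 and 4.61, with 2 of 4 at the floor. Primary tumours ran from 3.78 to 6.59 (median 5.11), and secondary tumours were at 5.14, 5.41, 4.78 and 5.96. The lines differed from osteoblasts by -2.51 (SE 0.5, adjusted p = 0.00108), and this was the 1 of 4 calls in that comparison that held in every setting in which it was tested, at -1.47 with the higher floor and -1.76 with the mean of the probe sets. Primary tumours differed from osteoblasts by -1.31 (SE 0.414, adjusted p = 0.0128), by -1.16 (adjusted p = 0.0792) without osteoblast culture 1, and by -1.08 (adjusted p = 0.0502) in array set C alone. The lines' differences of -1.19 from primary and -1.31 from secondary tumours were lost with the mean of the probe sets (-0.29 and -0.11) and with the higher floor (-0.38 and -0.33), and the second also with quantile normalization (-1.14), the 75th percentile scaling (-1.21) and no filter (adjusted p = 0.0519). The former was also lost without line 176 or line 179 (-1.07 each), and the latter without line 176, 179 or 182 or without secondary tumour 64 or 94 (-1.09 to -1.36).

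Sema6d, a plexin-A1 ligand, measured 8.52, 8.53 and 8.4 in osteoblasts and 6.22, 6.22, 6.25 and 6.80 in the lines. Among primary tumours the levels went from 6.8 to 9.32 (median 8.21), and secondary tumours were at 8.66, 9.41, 8.63 and 6.88. The lines differed from osteoblasts by -2.11 (SE 0.536, adjusted p = 0.00808), from primary tumours by -1.83 (SE 0.395, adjusted p = 0.000879) and from secondary tumours by -2.02 (SE 0.496, adjusted p = 0.00371). The other 3 probe sets differed from this one. For lines against osteoblasts they gave 0.73, -0.55 and 0.02, and the mean of the probe sets -0.48. That mean was -0.95 for lines against primary tumours and -1.07 against secondary tumours. With the array set as a fixed term the last was -1.61 (adjusted p = 0.0897). For primary tumours against osteoblasts one of them gave 1.62 where the chosen one gave -0.29.

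Sema4a and Sema7a, both of which act on immune cells, had the highest means of the semaphorins, 8.45 each, and were called in no comparison. Sema4a was at 8.52 ± 0.16 in 3 osteoblast cultures, 8.27 ± 0.18 in 4 lines, 8.48 ± 0.2 in 15 primary tumours and 8.49 ± 0.05 in 4 secondary tumours. Sema7a was at 8.16 ± 0.12, 7.91 ± 0.19, 8.62 ± 0.5 and 8.58 ± 0.55 in the same order. Sema3a, an inhibitor of osteoclast formation, was not called either, at 7.67 ± 0.11, 7.26 ± 0.37, 7.55 ± 0.83 and 7.6 ± 0.76; it lies next to Sema3d, which was called in 3 comparisons. For Sema3c the chosen probe set gave -0.24 for primary tumours against osteoblasts and a second one gave -2.38 (adjusted p = 0.00129 over all probe sets), so both were negative and the size and the call depended on the probe set.

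Of the plexins, the receptors of the semaphorins, 8 of 10 were tested. Against osteoblasts 1 was higher in primary tumours and 2 in secondary tumours, where 6.58% and 7.71% of all tested genes were. In the lines 2 were lower than in both tumour groups, against 5.52% of all genes. With 8 genes these counts are too small to be read as a family trait. Nrp2, the co-receptor for Sema3f and for the lymphatic growth factor VEGF-C, was the clearest. It was at 9.74, 9.64 and 9.58 in osteoblasts and 9.39, 7.86, 8.4 and 7.66 in the lines. Primary tumours ran from 9.79 to 11.29 (median 10.61), and secondary tumours were at 11.02, 11.18, 11.01 and 10.62. The groups fell into an order without overlap, with lines lowest, osteoblasts next and tumours highest. The lines differed by -2.22 from primary tumours (SE 0.280, adjusted p = 2.44e-06), by -2.63 from secondary tumours (SE 0.352, adjusted p = 1.35e-05) and by -1.33 from osteoblasts (SE 0.380, adjusted p = 0.0183). The last of these was lost without osteoblast culture 1 or 2 or line 179 or 213, with adjusted p of 0.0597 to 0.0705. It was also lost with quantile normalization (-1.01), with scaling to a common 75th percentile (-1.15) and with the mean of the probe sets (-0.75). Secondary tumours exceeded osteoblasts by 1.31 (SE 0.380, adjusted p = 0.00946). All 4 probe sets put the lines below primary tumours, with differences of -1.38 to -2.36.

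Nrp1, the co-receptor for Sema3a and VEGF-A, was at 9.94 ± 0.09 in 3 osteoblast cultures, 7.84, 8.86, 8.47 and 9.43 in the lines, 7.83 to 9.89 (median 8.5) in primary tumours and 8.89, 9.92, 9.11 and 7.95 in secondary tumours. Primary tumours differed from osteoblasts by -1.19 (adjusted p = 0.0248). The call was lost when any 1 osteoblast culture was left out (adjusted p = 0.0634 to 0.0868) in array set B alone (-0.66) and with quantile normalization (-0.87). Of the other probe sets, 2 gave -1.64 and -1.52, and the fourth gave 0.29.

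Plxnc1, the receptor of Sema7a, was low in osteoblasts alone. It measured 6.40, 6.18 and 6.36 there, 8.24, 7.54, 7.39 and 6.81 in the lines, 6.77 to 8.33 (median 7.45) in primary tumours and 7.05, 7.19, 7.44 and 8.99 in secondary tumours. All arrays of the other 3 groups were above the osteoblasts. The difference from osteoblasts was 1.18 in primary tumours (SE 0.331, adjusted p = 0.00578), 1.35 in secondary tumours (SE 0.400, adjusted p = 0.0104) and 1.18 in the lines (SE 0.400, adjusted p = 0.0467). The last was lost without any 1 osteoblast culture and without line 176, 179 or 182, with values of 0.93 to 1.22. It was also lost with no filter (adjusted p = 0.064), quantile normalization (0.069) and the mean of the probe sets (0.0678), and the secondary one without tumour 94 (0.91, adjusted p = 0.0534).

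Plxna2, a receptor of class 3 and class 6 semaphorins, was at 9.29, 9.19 and 9.07 in osteoblasts and 7.96, 8.46, 8.51 and 8.29 in the lines. The range over primary tumours was 7.64 to 11.3 (median 10.44) and secondary tumours were at 9.56, 10.66, 10.09 and 10.91. The lines differed by -1.67 from primary tumours (adjusted p = 0.00803) and -2.0 from secondary tumours (SE 0.599, adjusted p = 0.014). Among primary tumours the mean was 10.70 in set B and 9.34 in set C, the widest gap of all 48 genes. With the set as a fixed term the lines' differences were -1.03 (adjusted p = 0.0584) and -0.64 (adjusted p = 0.52), so neither was called.

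Plxnd1, the vascular receptor of Sema3e, was at 8.26 ± 0.09 in 3 osteoblast cultures, 8.2 ± 0.25 in 4 lines, 9.24 ± 0.49 in 15 primary tumours and 9.57 ± 0.24 in 4 secondary tumours. Secondary tumours (9.52, 9.90, 9.51 and 9.34) exceeded osteoblasts (8.26, 8.18 and 8.35) by 1.31 (SE 0.307, adjusted p = 0.00204). The lines (8.19, 7.95, 8.11 and 8.54) differed from secondary tumours by -1.37 (adjusted p = 0.000986) and from primary tumours by -1.05 (adjusted p = 0.000872). Within set C the latter was -0.71, under 2-fold, and without line 179 or with the 75th percentile scaling it was -0.97. With the array set as a fixed term the difference from secondary tumours was -0.66 (adjusted p = 0.102). Plxnb2, a receptor of class 4 semaphorins and the plexin with the highest mean, did not pass the test in any comparison, at 10.09 ± 0.09, 9.92 ± 0.35, 10.02 ± 0.32 and 10.07 ± 0.29 in osteoblasts, lines, primary and secondary tumours.

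Among the ephrins, 7 genes were tested, and Efna1 and Efnb2 rose in tumours. Efna1, a membrane-anchored ligand of EphA2, was at 5.69, 6.14 and 5.42 in osteoblasts and 6.11, 5.24, 5.30 and 4.74 in the lines. Primary tumours ran from 5.81 to 8.05 (median 7.66) and secondary tumours were at 7.75, 7.93, 7.70 and 7.51. All secondary tumours were above all cultures and lines, and the lowest primary tumour lay within the range of both. Primary tumours exceeded osteoblasts by 1.71 (SE 0.329, adjusted p = 0.000188) and secondary tumours by 1.98 (SE 0.397, adjusted p = 0.000483). The lines differed by -2.12 from primary tumours (SE 0.293, adjusted p = 7.70e-06) and by -2.38 from secondary tumours (SE 0.368, adjusted p = 6.71e-05). With lines and primary tumours matched by number, limma gave -1.53 (adjusted p = 0.121) for Efna1, which was not called. Its neighbours on chromosome 3 differed from it: Efna4 was called nowhere, at means of 6.08 to 6.32 in the 4 groups, and Efna3 was lower in the lines (3.80, 3.64, 3.68 and 4.06) than in primary tumours (3.64 to 6.13), a difference of -1.06 (adjusted p = 0.0308), a call that was lost without any 1 of the lines (-1.01 to -1.15), with the higher floor (-0.25), with quantile normalization (-0.93) and within set C (-0.90).

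Efnb2, the transmembrane ligand of EphB4 that marks arterial endothelium, was at 6.93, 6.93 and 6.65 in osteoblasts and 8.04, 8.08, 8.14 and 8.17 in the lines. The primary tumours spanned 7.39 to 10.9 (median 8.73), and secondary tumours were at 8.09, 7.89, 8.42 and 9.87. Every tumour and line was above the osteoblasts. Primary tumours exceeded osteoblasts by 1.92 (SE 0.483, adjusted p = 0.00245) and secondary tumours by 1.73 (SE 0.583, adjusted p = 0.0233). The secondary call was lost without any 1 osteoblast culture (adjusted p = 0.0541 to 0.0721) and without tumour 94 (1.29, adjusted p = 0.0967). For the lines the value was 1.27 (adjusted p = 0.148), which was not called. With limma fitted to the line and osteoblast arrays alone, the same 1.27 had an adjusted p of 0.00056. In array set B alone the difference of primary tumours from osteoblasts was 2.51. Of the 4 probe sets of Efnb2, 3 passed the filter, and the other 2 of these gave 1.56 and 1.22 for primary tumours against osteoblasts.

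Efnb1, a ligand of EphB receptors with a part in bone patterning, had the highest mean of the Efnb genes. It was at 9.85, 9.83 and 9.91 in osteoblasts, 10.10, 8.02, 9.01 and 9.04 in the lines, 8.5 to 10.83 (median 10.06) in primary tumours and 10.51, 10.65, 11.14 and 10.43 in secondary tumours. The lines differed from secondary tumours by -1.64 (adjusted p = 0.00345), with no overlap, and by -0.85 (adjusted p = 0.198) with the array set as a fixed term. Efna5, the brightest Efna gene, was not called in any comparison and had a wide spread: 8.54, 8.71 and 8.70 in osteoblasts, 7.10, 8.23, 8.91 and 7.91 in the lines, 7.11 to 10.82 (median 9.23) in primary tumours and 6.48, 9.11, 8.21 and 10.04 in secondary tumours.

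Of the Eph receptors, 5 of 9 Epha and 3 of 4 Ephb genes were tested. Epha2, the receptor of Efna1, was at 7.95, 7.71 and 7.88 in osteoblasts, 9.06, 6.65, 7.57 and 7.48 in the lines, 5.98 to 9.85 (median 9.23) in primary tumours and 9.31, 9.29, 9.37 and 9.47 in secondary tumours. Line 176 lay apart from the other lines and near the tumours. The lines differed from primary tumours by -1.32 (SE 0.443, adjusted p = 0.0217) and from secondary tumours by -1.67 (SE 0.556, adjusted p = 0.0254). Both calls were lost without line 179, 182 or 213 (-0.97 to -1.28 and -1.32 to -1.63), the second also without secondary tumour 94 (-1.63, adjusted p = 0.0536), and both with the array set as a fixed term (-0.90 and -0.78).

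Epha6, a receptor known from the nervous system, was at 4.89, 4.70 and 4.92 in osteoblasts and 5.31 to 6.13 (median 5.9) in primary tumours, with no overlap. The lines, at 5.31 to 5.69, and the secondary tumours, at 5.52 to 5.77, were also all above the osteoblasts. Their differences, 0.74 (adjusted p = 0.00202) and 0.82 (adjusted p = 0.000348), were under 2-fold and not called. The probe set cleared the filter on tumour arrays only. For primary tumours the excess over osteoblasts was 1.05 (adjusted p = 8.94e-07), and 0.98 without osteoblast culture 2, just under 2-fold. With quantile normalization it was 0.81 and with the higher floor 0.83. Ephb6, a kinase-inactive receptor, was at 6.42, 6.11 and 6.15 in osteoblasts, 3.64, 6.56, 6.68 and 5.70 in the lines, 3.64 to 6.38 (median 4.82) in primary tumours and 4.73, 4.29, 6.01 and 4.22 in secondary tumours. Primary tumours differed from osteoblasts by -1.37 (SE 0.514, adjusted p = 0.0339); this was lost without any 1 osteoblast culture (adjusted p = 0.0838 to 0.124), in set B alone (-1.13), with the higher floor (-0.95) and with no filter (adjusted p = 0.0516). Ephb3, the brightest Ephb gene, held at 9.02, 9.02 and 9.02 in osteoblasts, 8.9 to 9.23 over the lines, 9.03 to 9.62 over primary tumours and 9.46 to 9.7 over secondary tumours, and was not called. Ephb4, the venous partner of ephrin-B2, was not called either, at 6.39 ± 0.22, 7.09 ± 0.38, 6.86 ± 0.51 and 6.77 ± 1.1 in osteoblasts, lines, primary and secondary tumours.

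The genes left untested were Efnb3, Epha1, Epha7, Epha8, Epha10, Ephb1, Plxna4os1, Plxnb3, Robo3, Sema4f, Sema5b and Slit1, 12 in all. Epha8 and Epha10 were at the floor on all 26 arrays. The highest single value among the 12 was 6.15, for Sema4f in a primary tumour. Some of these, such as Epha7, Epha8 and Slit1, are best known from neurons.

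Markers of other cell types differed between the same groups as the guidance genes. In bulk samples such as these, fewer cells of a type and less RNA per cell cannot be told apart. The mean level of 14 endothelial markers spanned 5.23 to 5.33 over the lines and 5.71 to 6.13 over the osteoblast cultures, against 6.64 to 7.76 over primary and 6.26 to 7.69 over secondary tumours. Of these markers 10 were higher in primary tumours than in osteoblasts and 10 lower in lines than in primary tumours. The mean of 15 macrophage markers spanned 4.96 to 5.17 over the lines and 5.23 to 5.4 over the cultures, against 8.15 to 10.51 over primary and 8.17 to 9.82 over secondary tumours, and all 15 were called in both of these comparisons. Of all tested genes, 6.58% were higher in primary tumours than in osteoblasts and 7.03% lower in lines than in primary tumours. These shares also apply to the marker counts in the next paragraph. C1qa was at the floor in all osteoblasts and Fcgr3 in all lines. Skeletal muscle markers (12) varied most, from 4.65 to 10.27 in primary tumours and 4.83 to 8.71 in lines, with 4.88 to 5.04 in osteoblasts and 4.51 to 4.87 in secondary tumours.

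Osteoclast markers (7 of 9 tested) had means of 6.16 to 6.3 over the lines, 6.45 to 6.52 over the cultures, 6.41 to 10.04 over primary and 6.69 to 9.3 over secondary tumours, with 1, Ctsk, called higher in primary tumours than in osteoblasts. Adipocyte markers (7 of 10 tested) were at 11.23 to 11.29 in the osteoblast cultures against 5.51 to 7.32 over the lines, 5.44 to 7.47 over primary and 5.65 to 7.42 over secondary tumours. The 8 tested osteoblast markers spanned 7.62 to 9.48 over the lines, 10.62 to 10.75 over the cultures, 8.07 to 11.85 over primary and 9.77 to 11.74 over secondary tumours, and 5 of them were lower in lines than in primary tumours. Smooth muscle and pericyte markers (9) spanned 7.18 to 7.9 over the lines, 8.69 to 8.92 over the cultures, 7.91 to 8.74 over primary and 7.78 to 8.57 over secondary tumours. Schwann cell markers (7 of 10 tested) spanned 6.87 to 7.17 over the lines, 7.23 to 7.41 over the cultures, 6.51 to 7.42 over primary and 6.38 to 7.19 over secondary tumours. T and NK cell markers (4 of 10 tested) spanned 5.87 to 7.51 over the lines, 7.36 to 7.69 over the cultures, 6.06 to 7.88 over primary and 6.23 to 6.4 over secondary tumours. The part of these cells in the differences of the guidance genes was not tested beyond the correlations that follow.

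The 10 genes that rose in primary tumours against osteoblasts were set against the mean of the endothelial and of the macrophage markers across the 15 primary tumours, 20 relations in all, chosen after the differences had been seen. Robo4 followed the endothelial markers, with Pearson's r = 0.90 (permutation p = 1e-05, the smallest that 100000 permutations can give, adjusted 0.0002) and Spearman's rho = 0.93 (permutation p = 1e-05). Without the 2 tumours farthest from the median of the markers, r was 0.84. Within array set B it was 0.90 over 7 tumours (exact permutation p = 0.00278) and within set C 0.98 over 8 tumours (exact permutation p = 0.00186). No other relation passed an adjusted p of 0.05. Against the endothelial markers r was 0.49 for Sema4d (rho 0.42, permutation p = 0.0628 and 0.12, adjusted 0.215 and 0.32) and -0.46 for Robo2 (rho -0.33, permutation p = 0.0865 and 0.236, adjusted 0.216 and 0.491). For the same markers r was -0.49 for Plxnc1 (permutation p = 0.0645, adjusted 0.215) and 0.46 for Sema5a (permutation p = 0.0834, adjusted 0.216). Without the 2 farthest tumours r was 0.43 for Sema4d, -0.24 for Robo2, -0.15 for Plxnc1 and 0.56 for Sema5a. Against the macrophage markers the largest was Robo4, with r = 0.55 (rho 0.56, permutation p = 0.0326 and 0.032, adjusted 0.215 and 0.157) and 0.75 without the 2 farthest tumours. Robo2 had r = -0.51 (rho -0.55, permutation p = 0.049 and 0.0373, adjusted 0.215 and 0.157), and -0.46 without them. Plxnc1 had r = -0.51 (rho -0.54, permutation p = 0.0513 and 0.0394, adjusted 0.215 and 0.157), and -0.86 without them. For the same markers r was 0.34 for Sema4d (rho 0.23, permutation p = 0.212 and 0.405, adjusted 0.354 and 0.54) and -0.39 for Sema6a (rho -0.57, permutation p = 0.152 and 0.0295, adjusted 0.304 and 0.157). With 15 tumours, weaker relations may not be detectable.

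**Figure D3:**
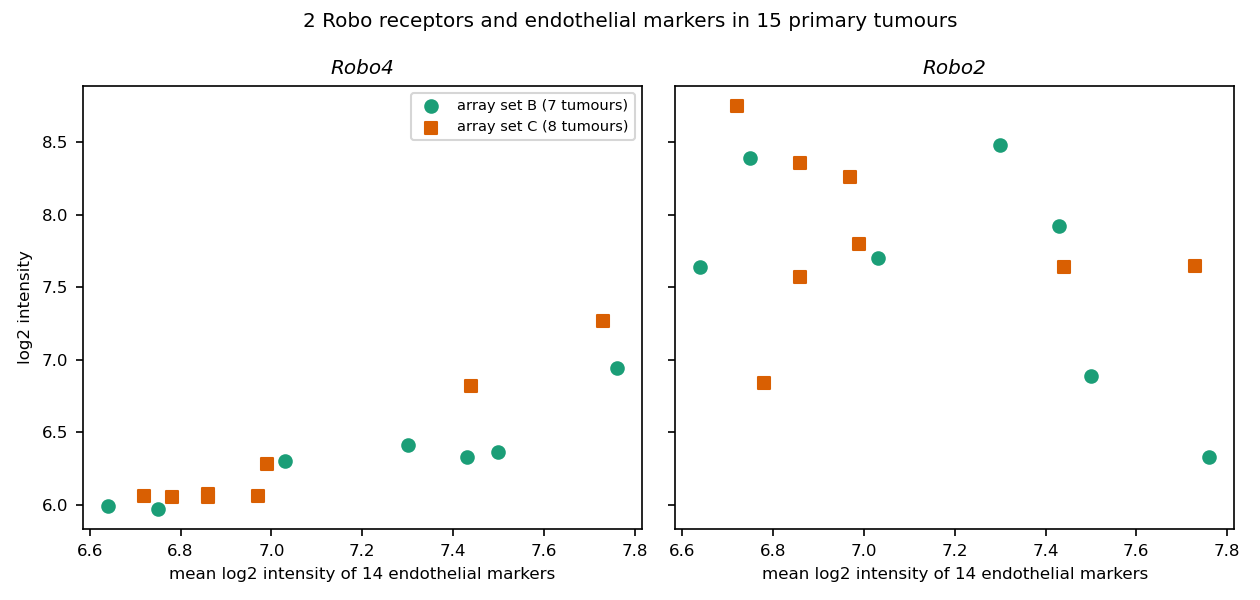
Log2 intensity of Robo4 and Robo2 (vertical axis) against the mean log2 intensity of 14 endothelial markers (horizontal axis) in 15 primary tumours, with the 2 array sets by symbol. Robo4 rises with the markers in both sets (r = 0.90 over all), and Robo2 does not (r = -0.46).

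The 15 primary tumours varied among themselves. The SD over the tumours was 0.02 to 1.2 across the 48 genes with a median of 0.505, and 9 genes had an SD over 0.8, led by Epha3 (1.20), Efna5 (1.13), Plxna2 (1.08) and Sema6a (0.98). Epha3, a receptor of ephrin-A5, ran from 5.46 to 9.7. The means of set B and set C differed by over 0.5 for 11 genes, with a median absolute difference of 0.29 over the 48. Besides Plxna2, set B was higher for Robo1 by 1.34, Efnb2 by 1.11, Nrp1 by 0.98 and Epha2 by 0.89. For these genes the spread among primary tumours contains a gap between sets. The Gapdh 5′ to 3′ ratio of the primary tumours also split by set, at 0.656 to 0.845 in set B and 0.909 to 1.03 in set C. The part of RNA integrity in these gaps was not tested.

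Primary and secondary tumours of the same number, which lie in the same array set, were compared pair by pair. The Gapdh 5′ to 3′ ratio was higher in the secondary tumour of all 4 pairs. For numbers 29, 64, 66 and 94 it was 1.08, 0.92, 0.839 and 0.904, against 0.81, 0.755, 0.656 and 0.736 in the primary tumours. The part of RNA integrity in the differences below was not tested. Deviations from the group mean over all genes were correlated within each pair (0.642 for number 94 to 0.224 for number 66), and each secondary tumour was most like the primary tumour of its own number. The median absolute difference within a pair was 0.30, 0.26, 0.29 and 0.15 for numbers 29, 64, 66 and 94. Efnb2 was lower in the secondary tumour of all 4 pairs, with differences of -1.20, -0.89, -0.84 and -1.04, a mean of -0.99 with an SD of 0.16. With the number as a block, limma gave an adjusted p of 0.166 for this gene, and the fit without the block gave -0.19. Plxna2 was also lower in 4 of 4 pairs, with differences of -0.79, -0.43, -0.39 and -0.39 (adjusted p = 0.312), where the fit without the block gave 0.33.

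In the other direction, Sema4d was higher in 4 of 4 pairs, by 1.07, 1.15, 0.45 and 0.20 (adjusted p = 0.312), and Sema3d by 1.23, 0.24, 0.34 and 0.87 (adjusted p = 0.322). Nrp2 was higher in 3 of 4 pairs, by 1.07, 0.84 and 0.40, with -0.01 in number 94. Robo1 had the largest difference of a single pair, -2.99 in number 66, the tumour labelled as derived from a cell line; it was -1.01, -0.72 and -0.01 in the others. None of the 48 genes passed the adjusted test with the number as a block, so these are values of 4 pairs.

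**Figure D4:**
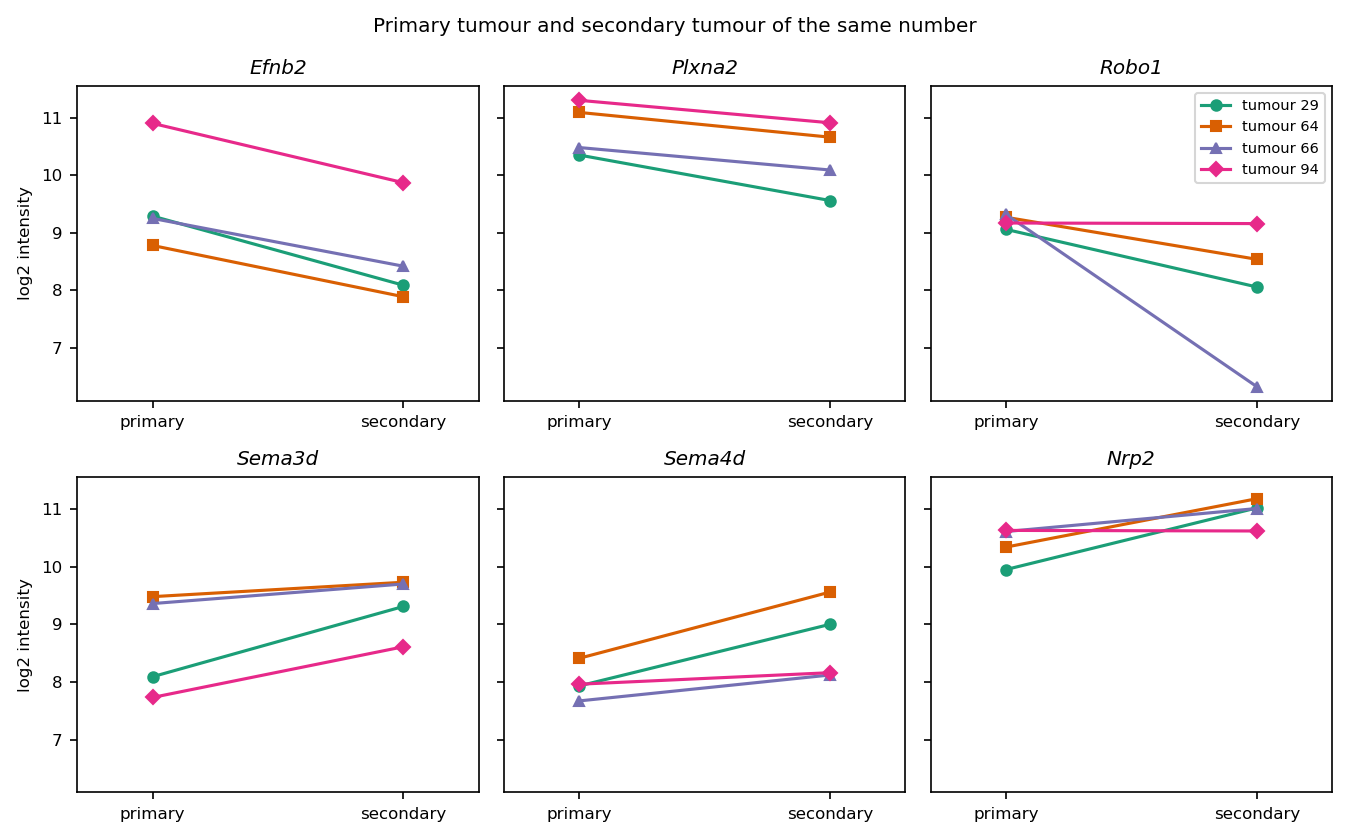
Log2 intensity of 6 genes in the primary tumour and the secondary tumour of the same number (29, 64, 66 and 94), joined by lines. Efnb2 and Plxna2 go down in all 4 pairs, Sema3d and Sema4d go up in all 4, and Robo1 goes down by 2.99 in number 66.

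Other genes of these pathways were taken from lists chosen with earlier results known. Their counts are to be read against the shares of all tested genes given above: 6.58% higher and 11.9% lower for primary tumours against osteoblasts, and 4.72% and 7.03% for lines against primary tumours. For secondary tumours against osteoblasts they were 7.71% and 10.8%, and for lines against osteoblasts 1.58% and 6.64%. For lines against secondary tumours they were 4.77% and 8.4%. Several lists lie near these shares, and nothing is called particular to a list. In the netrin system, the remaining classical guidance family, 12 of 17 genes were tested. In primary tumours 0 were higher and 2 lower than in osteoblasts: Flrt2, a ligand of Unc5 receptors, with a difference of -4.18 (SE 0.692, adjusted p = 3.43e-05) and Ntn4, a matrix netrin, with -2.22 (adjusted p = 1.95e-05). In the lines 1 gene, Flrt2, was higher than in primary tumours by 1.62 (adjusted p = 0.0405) and 0 were lower. Secondary tumours had 1 higher than osteoblasts, Unc5b by 1.26, and 2 lower. Lines had 0 higher and 3 lower than osteoblasts, and 3 higher and 0 lower than secondary tumours.

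Of 27 tested genes of semaphorin and plexin signalling, 1 was higher and 7 were lower in primary tumours than in osteoblasts. Plxdc1, a tumour endothelial marker, exceeded osteoblasts by 1.5 (adjusted p = 0.000527), while its relative Plxdc2 differed by -3.50 (adjusted p = 1.94e-05). In the lines 4 were higher and 0 lower than in primary tumours, with Plxdc2 at 1.54 and Rras, a small GTPase that plexins act on, at 1.5. Of 25 tested genes of ephrin and Eph signalling, 3 were higher and 2 lower in primary tumours than in osteoblasts. Chn1, a Rac regulator downstream of EphA4, was higher by 3.92 (SE 0.529, adjusted p = 2.49e-06) and Grb10, a signalling adaptor, lower, at -4.06 (adjusted p = 2.46e-06). Lines against primary tumours gave 1 higher (Grb10, 2.48) and 2 lower (Chn1, -2.28, and Chn2, -1.63), and lines against osteoblasts 0 in either direction.

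Slit and Robo signalling had 15 tested genes, with 3 higher and 2 lower in primary tumours than in osteoblasts and 0 higher and 3 lower in lines than in primary tumours. Gpc1, a heparan sulfate proteoglycan that binds Slit, exceeded osteoblasts by 2.52 in primary tumours (SE 0.353, adjusted p = 4.35e-06) and the lines differed from primary tumours by -1.23 (adjusted p = 0.00351). Sdc4, a syndecan, exceeded osteoblasts by 1.86 in primary tumours (adjusted p = 0.00076). All 10 neuropilin partners were tested, with 2 higher and 4 lower in primary tumours than in osteoblasts and 4 higher and 2 lower in lines than in primary tumours. Kdr, the main VEGF receptor and also 1 of the endothelial markers, exceeded osteoblasts by 2.65 in primary tumours (adjusted p = 4.70e-10) and the lines differed from primary tumours by -2.59. The ligands Vegfd and Vegfc differed by -4.17 and -3.58 between primary tumours and osteoblasts, lower in the tumours. Met, a receptor kinase that pairs with neuropilins and plexins, was higher in lines than in primary tumours by 2.37 (adjusted p = 0.000269), and Vegfc by 2.35. Against the secondary tumours, where no list had a gene called relative to primary tumours, the lines gave 3 higher and 1 lower among the neuropilin partners.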

How the data were processed

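Transcripts were measured in 26 mouse samples on 1-colour oligonucleotide arrays of 45101 probe sets, with cRNA labelled with biotin by in vitro transcription from oligo-dT primed cDNA, per the labels' protocols. The deposited values are linear intensities, 1 per probe set and array; for the software and normalization behind them, the sources used here give no name. Of the 1172626 values, 1.35% equal 1. Array medians were 44.4 to 58.8. No values were rescaled. Intensities below 12.5, the 20th percentile of all values, were raised to it, and log2 was taken.

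Control probe sets (64) were left out. Of the rest, 27344 probe sets above the overall median of 52.6 on at least 3 arrays were kept. Gene names came from the platform annotation: 34958 probe sets had 1 symbol, 932 several and 9211 none. For each gene, the kept probe set with the highest mean stood for it, which gave 12887 genes. One model over the 4 groups was fitted with limma 3.58.1 (lmFit, eBayes) in R 4.3.3, with Benjamini-Hochberg adjustment over all genes in each of 6 comparisons; the call was tested on simulated data. Correlations and figures used Python 3.11.15, NumPy 2.4.6, SciPy 1.17.1, pandas 2.3.3 and Matplotlib 3.10.9.

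The guidance genes, pathway lists and marker lists were chosen with earlier results of these data known. Full statistics are given for the genes called in a comparison (the 10 largest where more were called) and for the brightest gene of each of 9 families. Genes of the pathway lists are named only when called, at most the 2 largest each way. Secondary and primary tumours of the same number were paired, because their deviations from the group means correlated in all 4 pairs (0.449, 0.302, 0.224 and 0.642). Alternatives changed the floor (40th percentile), the filter (none, or the 75th percentile), the scaling between arrays, the probe set rule, array weights, the arrays in the fit, the array set, the replicate block, and each small-group array left out. The boundaries of the array sets (a bioB to bioC ratio of 0.8 and a bioD 5′ to 3′ ratio of 0.5), the test of every kept probe set and leaving out primary tumour 66 were chosen after seeing the data.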

Additional observations from a re-analysis of the deposited data

Results flagged for a closer look

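In groups of 4 arrays, 5 of 58 levels of 29 guidance genes had 1 array whose gap to the nearest other, relative to the group's range, was above the critical value of Dixon's test, which chance gives in about 1 group in 20. Robo1 was at 5.36 in cell line 176, with the other lines at 7.66 to 7.87. Epha6 was at 5.31 in cell line 213, with the others at 5.63 to 5.69. Sema6d was at 6.80 in the same line, with the others at 6.22 to 6.25. Sema3e was at 3.80 in secondary tumour 66, with the others at the floor of 3.64; with tied values the ratio is 1 for any value above the floor, so this level says nothing against chance. Slit3 was at 8.12 in secondary tumour 64, with the others at 7.66 to 7.73.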

How the results depend on the processing

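For 44 called differences (at most the 10 largest of a comparison), 704 values under the alternatives kept their sign, and 651 kept their side of the threshold. Differences that were not called did change sign: with the array set as a fixed term Robo1 in lines against secondary tumours went from -0.86 to 0.48, and with the fixed replicate block Plxna2 in secondary against primary tumours went from 0.33 to -0.50, and Slit3 and Efnb2 in lines against primary tumours from 0.43 to -0.49 and from -0.66 to 0.31. The fixed block held matched numbers only, so it used fewer primary tumours than the main fit. The count of guidance genes called for cell lines against osteoblasts (4) became 2 with quantile normalization (0 higher and 2 lower), 2 with the mean of the probe sets (0 higher and 2 lower), 11 with array weights and 9 when the fit held the arrays of these groups alone. Secondary tumours against osteoblasts gave 20 with array weights (13 reported). Cell lines against secondary tumours gave 10 with the array set as a fixed term (17 reported), a fit in which they are linked through primary tumours only. The number of tested genes fell to 36 under the stricter filter. Otherwise the cause of these shifts was not tested. For these counts and those below, the share of all genes called under the same setting is not given. A change of setting can move the calls of every gene, so the counts are not read as shifts particular to the guidance genes.

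Leaving out 1 array at a time gave 11 to 13 calls for primary tumours against osteoblasts, 2 to 4 for cell lines against osteoblasts (2 without osteoblast culture 1 or 2 or line 179), 11 to 13 for secondary tumours against osteoblasts, 14 to 17 for cell lines against primary tumours, 15 to 17 for cell lines against secondary tumours and 0 for secondary against primary tumours. The median difference of all genes for cell lines against osteoblasts moved from -0.10 to 0.07 with scaling to a common 75th percentile, and against secondary tumours from -0.07 to 0.08.

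With the tumour number as a random replicate block the counts were 15, 5, 13, 17, 0 and 18, in the order primary tumours, lines and secondary tumours against osteoblasts, lines and secondary tumours against primary tumours, and lines against secondary tumours. A fixed replicate block gave 0 for secondary against primary tumours, and 6 (18 reported) for lines against primary tumours over 3 matched numbers, which leave few samples in the fit. The 6 were Nrp2, Robo2, Robo4, Sema3e, Sema6d and Slit2, and the other calls of that comparison ended. Lines and primary tumours were matched by the number in their labels. The correlations of these lines with the primary tumour of that number were 0.035, 0.081 and 0.039. Such values, between cultured cells and bulk tumours, cannot show whether a line came from that tumour.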
